A study of Drosophila melanogaster with 48 samples.

Results

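Voltage-gated ion channels of the Drosophila brain were followed through 10 genes chosen by name: para, cac, Sh, Shab, Shal, Shaw, slo, eag, sei and KCNQ. All 10 were found among the 17869 annotated genes (23932 features with transposon insertions) of the count tables. The libraries hold brain RNA of 4 kinds of fly: males, females mated with wildtype males (wildtype-mated), females mated with SP0 males (SP0-mated) and virgins. Each kind comprised D3Inj flies, which received 1 session of very mild head-first impacts on day 3 after eclosion, and sham flies, which sat in the injury vial without impacts. Brains were collected on day 45 (D45, 6 weeks after the session) and on day 4 (D4, 1 day after it). This gave 16 groups of 3 libraries, 48 in all, and the submitters describe each library as an independent cohort of 40 flies. All flies were labelled WT. By the study's methods flies were, unless stated otherwise, offspring of w1118 mothers and nSyb-GAL4 fathers, so the neuronal driver was shared by D3Inj and sham groups alike. Mated females had been given a day with males, and SP0 males carried an SP null allele over a deficiency and so transferred no sex peptide.

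These genes encode the pore-forming subunits that open or close with membrane voltage and set how neurons fire. Sodium channels carry the rising phase of the action potential, presynaptic calcium channels couple it to transmitter release, and potassium channels repolarize the membrane and set the spacing of spikes. Several of these potassium channel families were first found in flies, through mutants that shake their legs under ether or lose movement on heating.

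Library totals were 21495740 to 60637359 counts, with a median of 35543946. In 47 of the 48 tables the count column was headed with another sample than the one its record names. The column header was followed here, with headers that say young read as D3Inj. That reading is an inference, and with the samples of the records none of the differences of the 10 genes between D45 and D4 given below was called. The dosage compensation RNAs roX1 and roX2 fitted the sex of every header, but they do not tell D3Inj from sham libraries. The tissue label was checked with 8 neuronal genes, which summed to 9561 to 15309 CPM (counts scaled to a common normalized library size) and none of which was at 0. In 4 D4 libraries (library 3 of D3Inj males, library 3 of sham wildtype-mated and libraries 2 and 3 of sham virgin females) 8 gut genes summed to 1238 to 1880 CPM, against 184 CPM or less in the other 44.

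Levels were compared between genes as CPM per kb of annotated exon. On this scale slo (142.7 ± 7.22, SD over 48 libraries) and para (138.3 ± 22.4) were highest, and each was above the other in 24 of the 48 libraries. The calcium channel gene cac (100.6 ± 7.64), Sh (95.3 ± 13.0) and Shab (94.6 ± 11.3) followed, with overlapping ranges. Shab stood above Shaw (59.7 ± 3.90) in all 48 libraries without overlap. Shaw and Shal (53.7 ± 9.96) overlapped, and eag (34.7 ± 3.20) and sei (28.9 ± 2.98) came next, eag being the higher of the pair within every library. KCNQ was lowest at 11.4 ± 0.743 CPM per kb, below sei without overlap. Exon length is the union over all annotated transcripts, so a gene with many unused exons reads low on this scale.

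**Figure D1:**
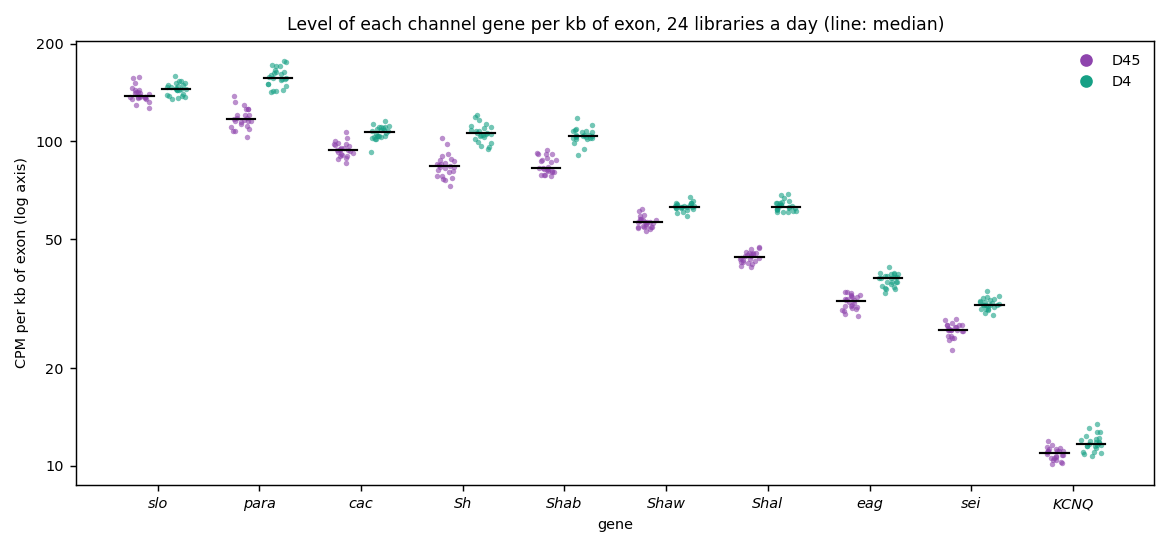
CPM per kb of exon (log axis) of the 10 channel genes, ordered by their mean over 48 libraries. Each point is 1 library, purple for the 24 of D45 and green for the 24 of D4, and lines are medians; the D45 points of para, Shal and sei lie below all of their D4 points, whereas those of slo overlap.

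These genes differed most often with age. In the mean of the 4 kinds of fly, a comparison added after the data had been seen, all 10 were lower on D45 than on D4 in sham brains and 9 of 10 in D3Inj brains at an edgeR adjusted p under 0.05 (called), where 25.9% and 27.1% of the 15640 features tested were called lower. The largest falls were in Shal and para, and the smallest in slo. The median log2 fold change of the 10 was -0.24 in D3Inj and -0.25 in sham brains, and that of all features was -0.01 and 0.00. Brains were sequenced whole, so fewer neurons and less channel RNA per neuron cannot be told apart. The fits held no term for handling or sequencing batch. Age and any such difference between D45 and D4 libraries cannot be told apart either.

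**Figure D2:**
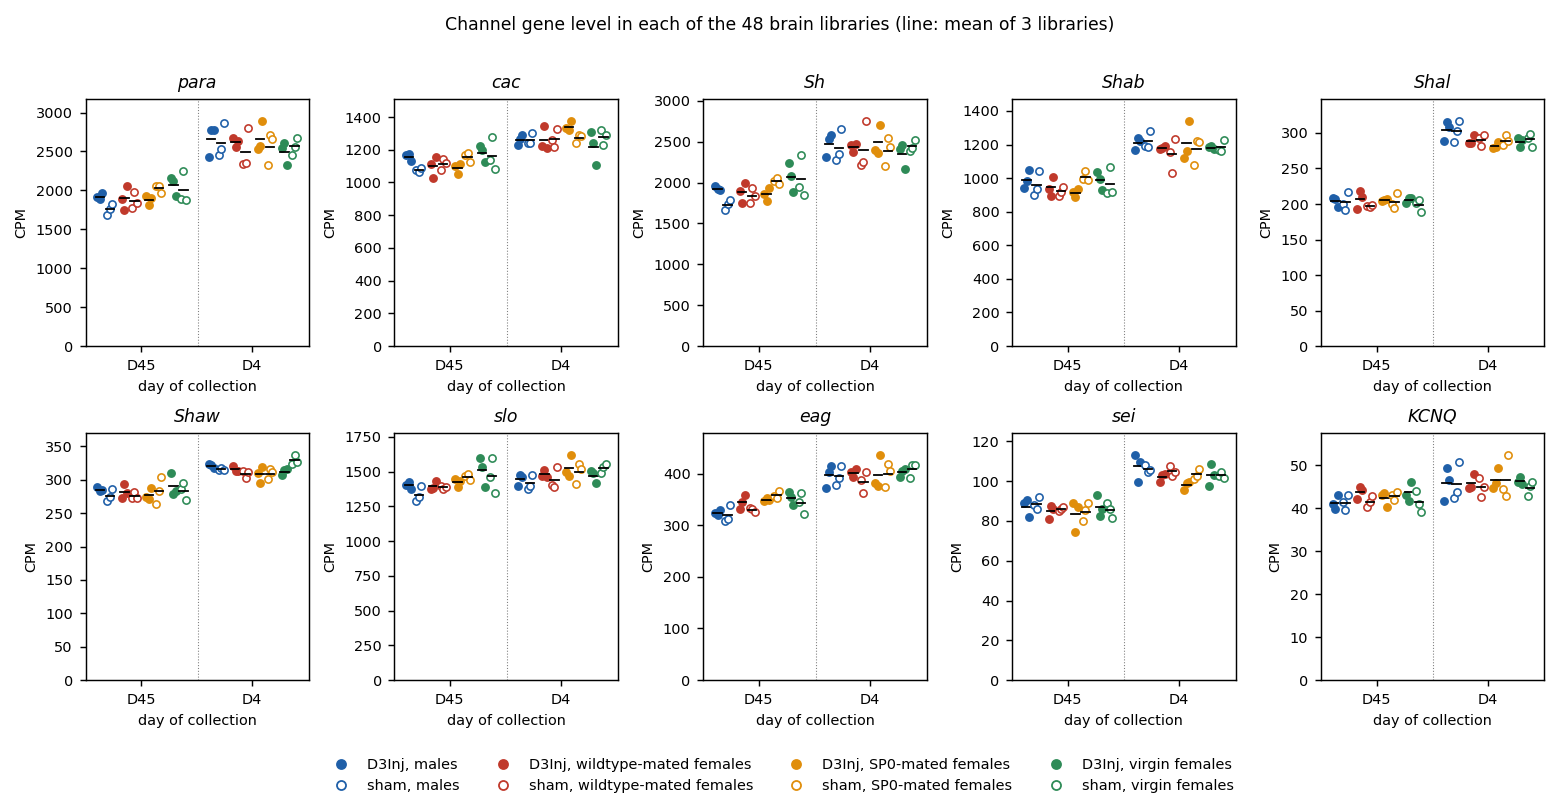
CPM of each channel gene in all 48 libraries, with D45 left of D4 and, within each day, males, wildtype-mated, SP0-mated and virgin females from left to right. Filled points are D3Inj and open points sham libraries, and lines are means of 3; para, Shal and sei separate the days completely, and filled and open points mix.

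The gene para encodes the main voltage-gated sodium channel, which carries the action potential. It lies on X:16455027-16533096 (dm6, minus strand, FBgn0285944) with 60 annotated transcripts. It had 1684, 1907 and 2251 CPM (lowest, median and highest of 24 libraries) on D45, against 2320, 2567 and 2888 CPM on D4, and no D45 library reached the D4 range. On the log2 scale it changed by -0.43 (SE 0.04, adjusted p = 2.7e-13) in D3Inj and -0.42 (SE 0.04, adjusted p = 3.6e-13) in sham brains by edgeR, or -25.6% and -25.4%. The fall was called in 8 of 8 kinds of fly and treatment. In sham males para had 1684, 1762 and 1824 CPM on D45, against 2452, 2529 and 2860 CPM on D4 (log2 fold change -0.57, SE 0.07). In D3Inj virgin females, where the fall was least, it had 2163, 2116 and 1921 CPM on D45, against 2540, 2612 and 2330 CPM on D4 (-0.27, SE 0.07). In both kinds the D45 libraries lay below the D4 libraries.

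The gene cac (X:11931280-11985087, minus strand, FBgn0263111) encodes the pore of the presynaptic calcium channel that triggers transmitter release. It fell less than para. Its libraries ran from 1027 to 1279 CPM on D45 (median 1125) and from 1109 to 1374 CPM on D4 (median 1275), so the days overlapped. Its log2 fold change was -0.17 in both D3Inj and sham brains (SE 0.03, adjusted p = 4.8e-07 and 2.6e-07 from edgeR). It was called in 6 of the 8 single comparisons, from -0.31 in D3Inj SP0-mated females, and not in D3Inj males (-0.12, SE 0.05) or D3Inj virgin females (-0.05, SE 0.05).

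Of the 4 Shaker-family genes, Shal fell most of all 10. It encodes the A-type channel of cell bodies and dendrites, and lies on 3L:19566851-19584568 (minus strand, FBgn0005564). Shal had 189, 202 and 218 CPM (lowest, median and highest) on D45, against 278, 289 and 317 CPM on D4, and the days did not overlap. The fold change was -0.50 (SE 0.02, adjusted p = 9.6e-22) in D3Inj and -0.55 (SE 0.02, adjusted p = 4.9e-23) in sham brains by edgeR, a loss of 29.3% and 31.6%. Over the 8 kinds of fly and treatment its values were -0.58 to -0.46, with every one called. In D3Inj wildtype-mated females Shal had 194, 218 and 210.0 CPM on D45, against 285, 286 and 297 CPM on D4.

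Sh encodes the Shaker channel, the fast-inactivating A-type channel of axons and terminals, on X:17924307-18063247 (minus strand, FBgn0003380), at 138.9 kb the longest of the 10 genes. Its libraries had 1659, 1912 and 2333 CPM on D45, against 2167, 2414 and 2750 CPM on D4, with some overlap. The log2 fold change was -0.33 (SE 0.04) in D3Inj and -0.34 (SE 0.04) in sham brains, and it was called in 7 of the 8 single comparisons. The exception was D3Inj virgin females (-0.18, SE 0.07, adjusted p = 0.0699 from edgeR), with 2235, 2083 and 1885 CPM on D45, against 2408, 2455 and 2167 CPM on D4.

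Shab, which encodes a slow delayed rectifier (3L:2895017-2959579, plus strand, FBgn0262593), fell in 8 of 8 comparisons. Its libraries had 889.5 to 1068 CPM on D45 (median 939) and 1032 to 1339 CPM on D4 (median 1184). Its log2 fold change was -0.32 (SE 0.03) in D3Inj and -0.29 (SE 0.03) in sham brains. Shaw encodes a weakly voltage-dependent channel that contributes a leak-like current in flies (2L:3718185-3729145, plus strand, FBgn0003386). It changed by -0.15 (SE 0.02) in D3Inj and -0.17 (SE 0.02) in sham brains, with 264 to 310.1 CPM on D45 and 296 to 337 CPM on D4, and was called in 7 of 8 comparisons, not in D3Inj virgin females (-0.10, SE 0.04).

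The gene slo encodes the pore of the large-conductance channel that opens with both calcium and voltage (3R:24662491-24711595, plus strand, FBgn0003429). It changed least: 1291, 1399 and 1600 CPM on D45, against 1373, 1477 and 1618 CPM on D4. The days overlapped over most of their range. In none of the 8 single comparisons was slo called, and its values ran from -0.10 to 0.04. In the mean of the 4 kinds slo moved by -0.05 on the log2 scale (SE 0.02, adjusted p = 0.0924) in D3Inj and -0.06 (SE 0.02, adjusted p = 0.0467) in sham brains by edgeR. The sham call was lost with DESeq2 (-0.05), with the size factors of DESeq2 in edgeR (-0.05), without the filter on low counts (-0.06), without the 4 libraries high in gut genes (-0.04) and on leaving out any 1 of 15 of the 24 sham libraries (-0.06 to -0.04).

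Of the ether-a-go-go family, eag (X:14955477-15009989, plus strand, FBgn0000535) is the founding gene, and sei (2R:24047411-24053035, plus strand, FBgn0003353) encodes the ERG-type channel whose loss stops movement in heat. The sei libraries had 74.4, 86.0 and 93.0 CPM on D45, against 95.6, 103 and 113 CPM on D4, with no overlap. Its log2 fold change was -0.26 (SE 0.03) in D3Inj and -0.28 (SE 0.03) in sham brains, and it was called in 8 of 8 comparisons. The eag libraries had 308, 342 and 366 CPM on D45, against 364, 403 and 436 CPM on D4, and its values were -0.22 (SE 0.03) and -0.23 (SE 0.03), also with 8 of 8 called. KCNQ encodes the channel of the slow M-type current (2R:10145897-10192394, minus strand, FBgn0033494). It had 39.2, 42.4 and 46.2 CPM on D45, against 41.7, 45.4 and 52.3 CPM on D4. It was called in none of the 8 single comparisons (-0.15 to -0.07) and only in the means, at -0.11 (SE 0.03, adjusted p = 0.00461) in D3Inj and -0.12 (SE 0.03, adjusted p = 0.00187) in sham brains by edgeR.

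Exons of sei and KCNQ overlap genes on the opposite strand, over 478 of 3278 bp and 1063 of 3875 bp, and the strand setting of the counting is not given in the sources used here. Of those genes gammaSnap1, opposite sei, had 32.5 CPM on D45 against 43.7 CPM on D4 at the median (sham log2 fold change -0.40, SE 0.04), and CG18011, opposite KCNQ, had 19.9 CPM against 16.4 CPM (0.29, SE 0.06). How much of their reads entered sei and KCNQ was not tested.

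**Figure D3:**
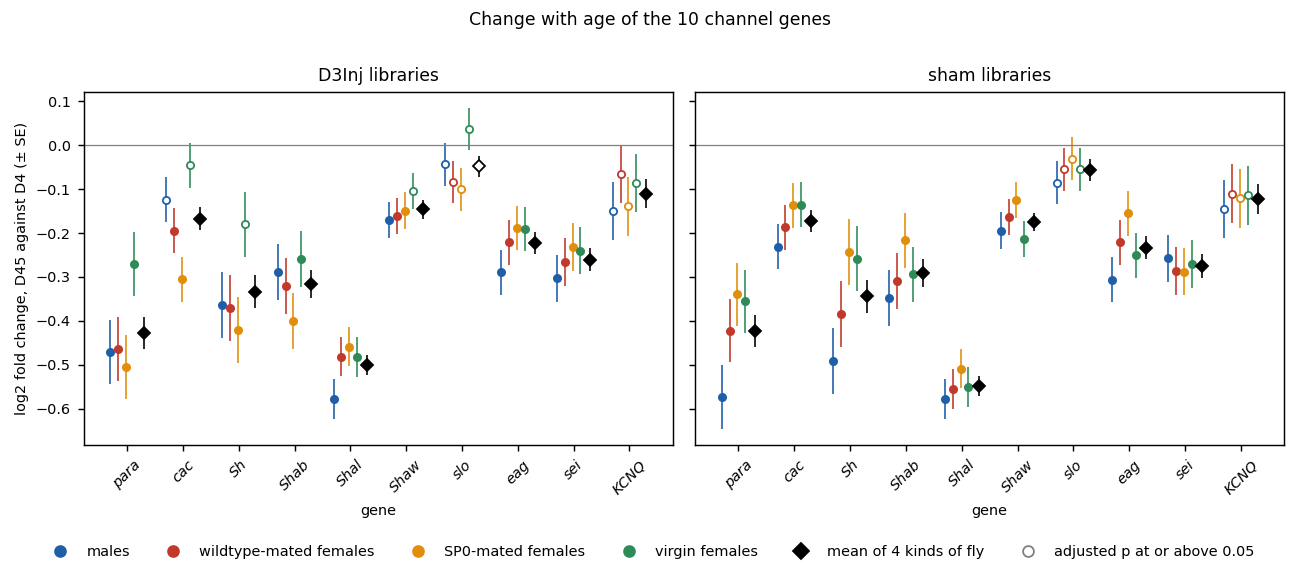
Log2 fold change ± SE of D45 against D4 for the 10 channel genes, in D3Inj libraries (left) and sham libraries (right). Circles are the 4 kinds of fly, diamonds their mean, and open symbols have an edgeR adjusted p of 0.05 or more; Shal and para lie lowest, and slo and KCNQ are open in every single kind of fly.

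Taken by kind of fly, the members called lower on D45 were 7 of 10 in D3Inj males, 8 in D3Inj wildtype-mated, 8 in D3Inj SP0-mated and 5 in D3Inj virgin females, where 14.9%, 15.5%, 15.2% and 12.8% of all features were called lower. In sham brains they were 8 of 10 in males, 8 in wildtype-mated, 8 in SP0-mated and 8 in virgin females, where 16.2%, 13.9%, 13.6% and 13.8% of all features were called lower. Over these 8 comparisons 60 of 80 values were called lower, 0 higher, and 79 of 80 were negative, the exception being slo in D3Inj virgin females (0.04, SE 0.05). The counts for sham SP0-mated females rested on single libraries: 3 of 10 were called without D4 library 2, and 5 without D4 library 3, D45 library 1 or D45 library 2. With all libraries Sh was at -0.24, Shab -0.22, Shaw -0.12, cac -0.14 and eag -0.16, and without D4 library 2 all 5 missed the threshold, at -0.20, -0.19, -0.11, -0.13 and -0.12. Without any of the other 3 Shaw (-0.12 to -0.08), cac (-0.15 to -0.13) and eag (-0.15) missed it, and cac also without D45 library 3 (-0.12). In sham virgin females cac was lost without D4 library 1 or 3 or D45 library 1 or 3 (-0.13 to -0.08), and Sh without D45 library 3 (-0.19). Without the 4 libraries high in gut genes, a single D4 library of sham virgin females remains, which is assumed to vary like the other groups. With it 5 of 10 were called there, with Sh (-0.22), cac (-0.18) and eag (-0.19) past the threshold no longer, and cac was lost in sham wildtype-mated females (-0.15). In D3Inj SP0-mated females eag was lost without D4 library 3 (-0.12).

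Every one of the 24 D45 libraries was below every one of the 24 D4 libraries for 3 of the 10 genes (para, Shal and sei), as for 4.65% of all features. Injury did not shift the age difference detectably. The D3Inj value minus the sham value, in the mean of the 4 kinds, was -0.02 to 0.05 over the 10 genes, with 95% intervals within -0.12 to 0.12. By edgeR 0 of 10 were called (0% of features) and 0 had an unadjusted p under 0.05, and DESeq2 also called 0.

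Because the genes fell by different amounts, their proportions within a library shifted. The ratio of Shal to slo CPM was 0.126, 0.143 and 0.158 (lowest, median and highest) in D45 libraries, against 0.178, 0.196 and 0.216 in D4 libraries, without overlap. On the log2 scale para over slo was 0.34 to 0.52 on D45 and 0.72 to 0.95 on D4, and Sh over slo 0.33 to 0.54 and 0.61 to 0.84, again without overlap. The ratio of eag to slo also separated the days (-2.16 to -1.98 and -1.97 to -1.79). Those of Shab, Shaw, cac, sei and KCNQ to slo overlapped. The denominator slo is the gene that changed least. The share of all features that separate the days in a ratio to slo was not counted. Neuronal genes outside the channels fell as well: 7 of the 8 markers were called lower in both D3Inj brains (median log2 fold change -0.41) and sham brains (-0.43), among them the vesicle proteins cpx (-0.72 and -0.75) and Syt1 (-0.62 and -0.62), while the RNA-binding protein elav moved by -0.07 and -0.11. The eighth, the transcription factor onecut, was called higher in D3Inj brains (0.04, adjusted p = 0.0295 from edgeR) and not called in sham brains (0.02). Of all features 27.1% and 25.9% were called lower. Summed, the 8 had 9561, 10099 and 10996 CPM on D45, against 13257, 14019 and 15309 CPM on D4. Against the mean log2 CPM of these 8, the median of 2 of the 10 channel genes was lower on D45 than on D4 (para -0.03 and Shal -0.14) and that of 8 was higher. These were slo (0.34), KCNQ (0.29), cac (0.23), Shaw (0.23), eag (0.18), sei (0.13), Shab (0.09) and Sh (0.05), with all D45 libraries above all D4 libraries for slo and Shaw. The share of all features that did so on this ratio was not counted. The direction depends on the markers taken, since cpx and Syt1 fell by more than any of the 10, whereas elav and onecut moved little. Ratios to elav or onecut alone were not computed. Relative to the 8 markers para was at 0.64, 0.82 and 0.96 on D45, against 0.71, 0.85 and 1.02 on D4, and the days overlapped. Shal was at -2.55, -2.42 and -2.35 on D45, against -2.39, -2.29 and -2.21 on D4. The values of slo were 0.30 to 0.49 on D45, against -0.04 to 0.18 on D4.

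Markers of some other cell types moved with age too. The 9 glial markers summed to 2849 to 3636 CPM on D45 and 4381 to 5830 CPM on D4, with 5 called lower and 3 higher in sham brains. In the mean of the 4 kinds 25.9% of all features were called lower and 28.6% higher in sham brains. The 8 muscle markers summed to 101 to 308 CPM on D45 and 42.4 to 122 CPM on D4. In the mean of the 4 kinds 4 of the 8 were called higher and 0 lower in sham brains. The sum was largely that of bt, with a median of 124 CPM on D45, against 31.4 CPM on D4. The median of Mhc was 13.1 CPM on D45, against 13.3 CPM on D4. The days overlapped widely for the 6 fat body markers (1786 to 21978 CPM and 1564 to 12000 CPM). They also did for 8 photoreceptor markers (694 to 1334 CPM and 840 to 1703 CPM) and 5 hemocyte markers (527 to 1065 CPM and 574 to 1158 CPM). Genes spanning at least 50 kb, of which para, Sh, Shab, cac and eag are members, had a median log2 fold change of -0.07 in both D3Inj and sham brains over 310 genes, against 0.02 and 0.03 over 12362 shorter genes. The part of cell makeup and gene length in the channel values was not tested.

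A further 32 channel and auxiliary genes were listed by role, of which 31 were found and 30 passed the filter on low counts. In the mean of the 4 kinds, 25 of the 30 were lower and 4 higher on D45 in D3Inj brains, and likewise 25 and 4 in sham brains, with medians of -0.28 and -0.27. Of all features 27.1% and 25.9% were called lower and 28.3% and 28.6% higher. Among genes that work with the sodium channel, tipE, which raises its current, changed by -0.42 (SE 0.02) in D3Inj and -0.45 (SE 0.02) in sham brains, and its relative Teh2 by -0.44 and -0.48. The sodium channel relative NaCP60E fell most, with 1471, 1550 and 1700 CPM on D45, against 2283, 2633 and 2903 CPM on D4 (-0.75, SE 0.03, in D3Inj and -0.73, SE 0.03, in sham brains). The leak channel complex fell together: Mid1, which localizes it, by -0.51 and -0.54, unc79 by -0.50 and -0.45, unc80 by -0.44 and -0.40 and its pore gene na by -0.29 and -0.24. Hk, which encodes the beta subunit of Shaker, changed by -0.45 (SE 0.03) in D3Inj and -0.49 (SE 0.03) in sham brains, and qvr, a regulator of Shaker, by -0.37 and -0.39. Ih, the hyperpolarization-activated channel, changed by -0.48 (SE 0.02) and -0.51 (SE 0.02).

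Not all channel genes fell. Elk, the third member of the ether-a-go-go family, had 165, 197 and 214 CPM on D45, against 147, 158 and 172 CPM on D4, and rose by 0.28 (SE 0.02) in D3Inj and 0.31 (SE 0.02) in sham brains, whereas eag and sei fell. In the mean of the 4 kinds the inward rectifier genes Irk3 (0.15 and 0.19) and Irk1 (1.15 and 1.03) rose and Irk2 fell (-0.30 and -0.32). Over D3Inj and sham libraries together, Irk3 had a mean of 39.3 CPM on D45, against 33.4 CPM on D4, in females. In males it had 34.1 CPM on D45, against 34.7 CPM on D4. The male change minus the mean of the 3 female changes was called by edgeR for 0 of the 30 genes in D3Inj or sham brains. Of all features 0.32% and 0.467% were called. Irk1 was scarce, at 4.94 to 12.7 CPM on D45 and 2.46 to 5.88 CPM on D4, as was the potassium leak channel gene sand at 1.02 CPM or less. Exons of Irk1 overlap CG46310 on the same strand over 3202 of 5246 bp, and those of tipE overlap CG18675 over 777 of 4084 bp. Exons of Teh2 and Teh3, a further relative of tipE, overlap each other over 229 bp. The effect of these overlaps on the counts was not tested. Slob, which encodes a protein that binds the slo channel, was not called at -0.01 (SE 0.02) in D3Inj and 0.00 (SE 0.02) in sham brains.

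**Figure D4:**
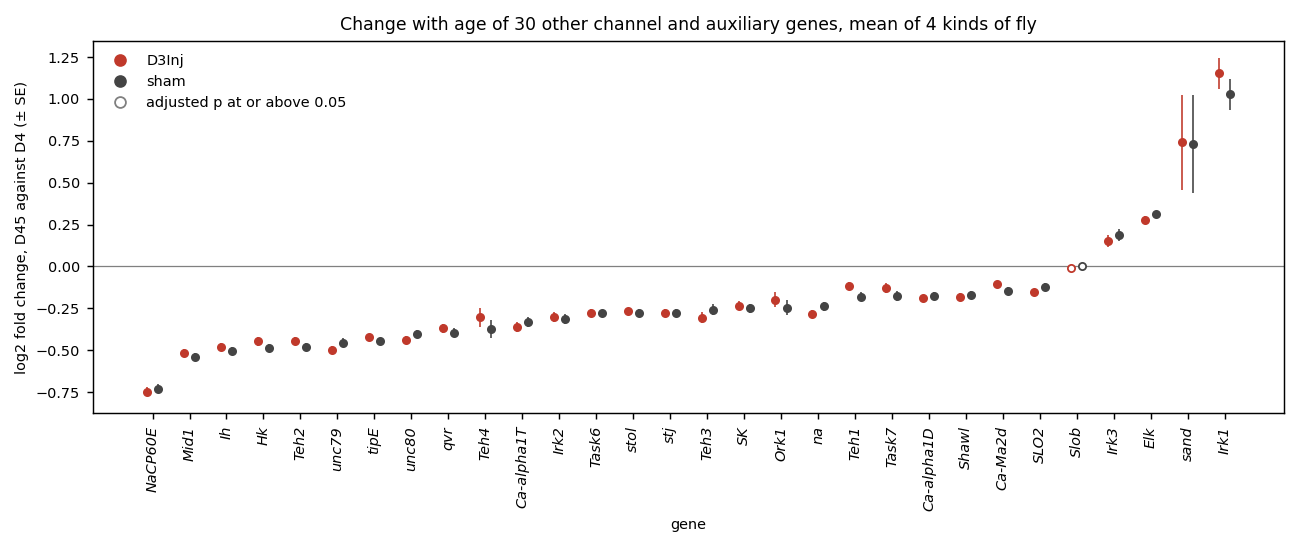
Log2 fold change ± SE of D45 against D4, in the mean of 4 kinds of fly, for the 30 other channel and auxiliary genes that passed the filter, ordered by the sham value. D3Inj (red) stands left of sham (grey) for each gene, and open symbols have an edgeR adjusted p of 0.05 or more; 25 genes were called lower and 4 (Irk3, Elk, sand and Irk1) higher in both.

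Whether males and females differed in the change with age was asked next. In D3Inj brains, a comparison added after the data had been seen, the male change minus the mean of the 3 female changes was -0.06 (SE 0.08) for para and -0.04 (SE 0.09) for Sh. By edgeR 0 of 10 were called (0.32% of features were), 0 had an unadjusted p under 0.05, and DESeq2 called 0. In sham brains the difference was -0.20 (SE 0.08, 95% interval -0.37 to -0.03) for para and -0.20 (SE 0.09, -0.37 to -0.02) for Sh, with an edgeR adjusted p of 0.422 and 0.472. There too 0 of 10 were called (0.467% of features were), 2 had an unadjusted p under 0.05, and DESeq2 called 0.

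The response to head injury was small for all 10 genes. On D45 and on D4 none was called in any of the 4 kinds of fly, and DESeq2 also called 0. The 80 log2 fold changes of D3Inj against sham lay between -0.14 and 0.16, and their 95% intervals within -0.27 to 0.30, a fold of 0.829 to 1.23. An unadjusted p under 0.05 was found for 5 of the 80, and the lowest adjusted p was 0.773. Of all features tested, 0% were called on D45 in any kind of fly, and on D4 0.00683% in males, 0% in wildtype-mated, 0.00683% in SP0-mated and 0.0547% in virgin females. In the mean of the 4 kinds the values were -0.01 to 0.04 on D45 and -0.02 to 0.03 on D4, with 0 called by edgeR or DESeq2 and 0 at an unadjusted p under 0.05 on either day (0% and 0.0273% of features were called). Of the 30 other channel genes 0 were called in these 8 comparisons as well.

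**Figure D5:**
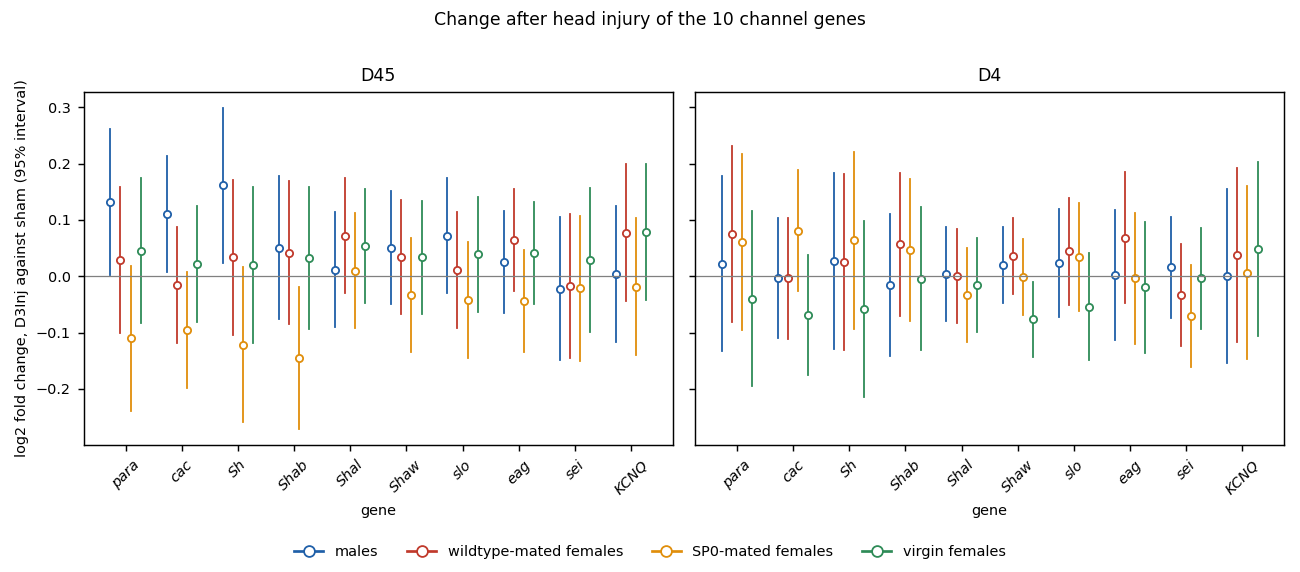
Log2 fold change of D3Inj against sham for the 10 channel genes on D45 (left) and D4 (right), 1 point for each kind of fly with its 95% interval. All points lie between -0.14 and 0.16, and on D45 the points of males and SP0-mated females lie on opposite sides of 0 for 8 of the 10 genes, all but Shal and sei.

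On D45 the values of males and SP0-mated females had opposite signs for 8 of the 10 genes, all but Shal and sei. The share of all features with opposite signs was not counted. Genes spanning at least 50 kb, para, Sh, Shab, cac and eag among them, had a median of 0.03 in males and -0.03 in SP0-mated females. Shorter genes had -0.02 and 0.01. The part of gene length in the channel values was not tested. Sh had 1953, 1919 and 1904 CPM in D3Inj males, against 1659, 1737 and 1781 CPM in sham males (log2 fold change 0.16, SE 0.07, adjusted p = 0.816 from edgeR). It had 1865, 1779 and 1936 CPM in D3Inj SP0-mated females, against 2019, 2055 and 1985 CPM in sham SP0-mated females (-0.12, SE 0.07, adjusted p = 0.788 from edgeR). D3Inj libraries were thus all above sham in males and all below sham in SP0-mated females. The same held for para, at 1908, 1888 and 1965 CPM in D3Inj males, against 1684, 1762 and 1824 CPM in sham males (0.13, SE 0.06), and 1924, 1808 and 1906 CPM in D3Inj SP0-mated females, against 2052, 2059 and 1963 CPM in sham SP0-mated females (-0.11, SE 0.06). It also held for cac (0.11, SE 0.05, and -0.10, SE 0.05). In males 3 of 10 genes lay wholly above sham, where 6.25% of features did. In SP0-mated females 5 of 10, with Shab (-0.14) and eag (-0.04), lay wholly below, where 5.83% of features did. None passed the test, and in the 12 comparisons of 2 responses 0 of 120 values were called, with 7 at an unadjusted p under 0.05 and a lowest adjusted p of 0.667 from edgeR. In wildtype-mated females Sh had 1896, 1749 and 1999 CPM after D3Inj, against 1754, 1937 and 1832 CPM in sham, and in virgin females 2235, 2083 and 1885 CPM, against 1946, 2333 and 1844 CPM, so both overlapped.

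Between males and wildtype-mated females in sham brains, 0 of 10 genes were called on D45 or D4, where 4.25% and 6.25% of features were. On either day 0 had an unadjusted p under 0.05, and DESeq2 called 0. Of the 10 genes 4 lie on the X chromosome, which males carry in a single copy. Their values on D4 were 0.06 (SE 0.08) for para, 0.01 (SE 0.08) for Sh, -0.01 (SE 0.05) for cac and 0.04 (SE 0.06) for eag. On D4 tipE (143, 138 and 141 CPM in males, against 129, 122 and 129.9 CPM in females) and its relative Teh3 (82.6, 93.7 and 89.5 CPM, against 69.0, 71.0 and 68.7 CPM) were higher in males, by 0.14 and 0.35. On D45 Elk (-0.22), Irk3 (-0.34) and na (-0.15) were lower in males. These were the genes called among the 30 other channel genes, 2 higher in males on D4 and 3 lower on D45. Of all features 3.05% were called higher in males on D4 and 2.81% lower on D45.

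The males were also set against the mean of all 3 kinds of female, a comparison added after the data had been seen. In D3Inj brains of D45 the log2 fold change was -0.02 (SE 0.05) for para and -0.01 (SE 0.05) for Sh. By edgeR 0 of 10 genes were called lower there (5.08% of features were), 1 had an unadjusted p under 0.05, and DESeq2 called 0. In sham brains of D45 para (-0.16, SE 0.05, adjusted p = 0.0437) and Sh (-0.19, SE 0.06, adjusted p = 0.0267) were lower in males by edgeR, 2 of 10 genes, where 4.97% of features were called lower, and DESeq2 called 3. The para values were 1684, 1762 and 1824 CPM in males, against 1775 to 2251 CPM (median 1963) in the 9 female libraries. Those of Sh were 1659, 1737 and 1781 CPM in males, against 1754 to 2333 CPM (median 1946), so in both genes the ranges touched. Both calls were lost without D45 male library 1 or 2 (para -0.14 and -0.17, Sh -0.16 and -0.20). That of para was also lost without wildtype-mated library 2 or 3, SP0-mated library 1 or 2, or virgin library 2 (-0.17 to -0.13), with the replicate number as a block (-0.16, adjusted p = 0.0569 from edgeR) and with all 48 libraries in the fit (-0.16, adjusted p = 0.0780 from edgeR). Without virgin library 3 the count was 4. On D4 0 of 10 were called in D3Inj and in sham brains by edgeR and by DESeq2, where 10% and 9.43% of features were, with 2 and 0 at an unadjusted p under 0.05. The 3 sham male libraries of D45 entered this comparison, the injury comparison in males and the change with age alike.

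Mating state made little difference in sham females. In the 6 comparisons (wildtype-mated against virgin, wildtype-mated against SP0-mated and SP0-mated against virgin, on D45 and D4) 0 of 10 genes were called by edgeR or DESeq2, where 0%, 0.0131% and 0.0131% of features were on D45 and 0.0615%, 0% and 0.0478% on D4. The log2 fold changes lay between -0.15 and 0.07, and 5 of the 60 had an unadjusted p under 0.05. On D4 Shaw had 313, 302 and 312 CPM in wildtype-mated, against 324, 337 and 327 CPM in virgin females (-0.10, SE 0.03), and 301, 316 and 311 CPM in SP0-mated, against the same virgin females (-0.09, SE 0.03). In either case the mated libraries all lay below the virgin libraries, as for 5.96% and 6.1% of features, and the edgeR adjusted p was 0.424 and 0.493. Both comparisons rest on the same virgin libraries, most of which are among the 4 high in gut genes. On D45 Sh, Shab, slo and eag were lower in all wildtype-mated than in all SP0-mated libraries, 4 of 10 genes, where 7.07% of features were (eag -0.12, SE 0.04, adjusted p = 0.639 from edgeR).

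Within a day the genes varied together to different degrees, with libraries that shared depth, day and group. Over the 24 libraries of each day Pearson's r of log2 CPM was 0.97 on D45 and 0.96 on D4 between para and Sh, and 0.90 and 0.53 between para and cac. It was 0.01 and -0.10 between para and sei, and 0.06 and 0.46 between para and Shal, the pair that fell most. For each library the median deviation of 287 other genes spanning at least 50 kb from their day means was also taken. Its r on D45 and D4 was 0.71 and 0.73 with para, 0.71 and 0.71 with Sh and 0.49 and 0.64 with cac. It was 0.39 and 0.41 with Shal and 0.04 and -0.09 with sei. The part of gene length in the pair values was not tested. Over all 48 libraries, where age adds to every pair, the 45 values ran from 0.316 to 0.986. Across these 48 libraries and 9015 genes screened, the profiles most like para were those of Rdl, a GABA receptor subunit (r = 0.966), and SK, a calcium-activated potassium channel (0.962), and SK (0.973) and Rdl (0.958) were also most like Sh. Shal was closest to Sap47 (0.985), a synapse-associated protein, and nwk (0.984), and KCNQ to Rim (0.776) and Rbp (0.768), both of the presynaptic active zone. The genes most like slo were rdgA (0.846), a diacylglycerol kinase, and the innexin shakB (0.809), so slo and KCNQ had the lowest top values of the 10. The closest were CG16779 (0.978) and the calcium channel Ca-alpha1T (0.967) to Shab, CG4467 (0.939) and nAChRalpha7 (0.931) to Shaw, sm (0.928) and CG42784 (0.916) to cac, tei (0.946) and CG32432 (0.944) to eag, and dpr13 (0.942) and CG13506 (0.938) to sei.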

How the data were processed

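The authors assessed reads with FastQC, aligned them to dm6 with RNA STAR and, on Galaxy, ran featureCounts with an Ensembl annotation. Tool versions, the annotation release and the strand option were not stated in the methods or labels. The libraries were depleted of rRNA and stranded. The deposited values are raw counts per feature, 1 table per library, with replicates not pooled.

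Each table was taken as the sample in its column header. Counts were normalized by TMM, filtered with filterByExpr (15640 features over all 48 libraries, 14631 on D4 and 15286 on D45) and tested with the quasi-likelihood test of edgeR 4.0.16 in R 4.3.3 (limma 3.58.1), with p-values adjusted by Benjamini-Hochberg over all features and 0.05 as threshold. Comparisons within a day used its 24 libraries, and those of age all 48. The CPM were computed on TMM library sizes, log2 CPM with a prior count of 2, and lengths and coordinates from the Ensembl annotation of BDGP6.54 (dm6). The scripts were tested on simulated data. The p-values measure the spread between cohorts of 40 flies.

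The members and lists were chosen with earlier results of these data known. Named were all 10 members, up to 6 called genes of the other channel list per comparison by smallest p, and the 2 genes most correlated with each member, and any further name from that list was picked with its values known. Of 32 other channel genes listed, Ca-beta was not matched and galene did not pass the filter. The alternatives were other size factors, no filter, genes alone, other libraries in the fit, a replicate block, DESeq2 1.42.0, the sample of the record, leaving out the libraries high in gut genes and leaving out each library. Replicate numbers were not taken as pairs. On D4 the correlation of deviations was over 0.1 in 9, 1 and 5 of 28 pairs of libraries numbered 1, 2 and 3 (highest 0.383, 0.221 and 0.548), against 23 of 168 pairs with different numbers, and on D45 in 0 of 28 for each number, against 1 of 168. No pair of libraries of a group agreed within sampling noise (chi-square per degree of freedom 3.90 to 58.3).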

Additional observations from a re-analysis of the deposited data

Results flagged for a closer look

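Of the responses to D3Inj compared between kinds of fly, 4 stood out because every library of one kind lay on one side of its sham libraries and every library of the other kind on the opposite side. On D45 the response of males minus that of SP0-mated females was 0.283 for Sh (log2, SE 0.0944, edgeR adjusted p = 0.667), 0.242 for para (SE 0.0884, edgeR adjusted p = 0.670) and 0.206 for cac (SE 0.0706, edgeR adjusted p = 0.667). On D4 the response of Shaw in wildtype-mated minus virgin females was 0.113 (SE 0.0459, edgeR adjusted p = 0.998). On the library sizes of D4 the D3Inj libraries of wildtype-mated females lay above sham, but on those of all 48 libraries they overlapped, at 321, 313 and 313 CPM in D3Inj and 313, 302 and 312 CPM in sham. None of the 4 passed the test of the difference itself. On D45 the difference between males and SP0-mated females had a median of 0.06 over all genes spanning at least 50 kb. Sh, para and cac are such genes, and shorter genes had -0.02. The Shaw value drew on sham libraries high in gut genes. The part of gene length or gut genes was not tested.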

How the results depend on the processing

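With each table taken as the sample of its record instead of its header, 0 of the 10 genes were called in each of the 8 comparisons of D45 against D4, in their means over 4 kinds of fly and between males and the 3 kinds of female in sham brains of D45. That reading counts as male some libraries whose roX1 and roX2 sums were those of female headers. Of the called log2 fold changes 54 then missed the threshold and 27 turned positive. These were cac in D3Inj (0.013) and sham (0.0080) wildtype-mated females, and Shal in D3Inj virgin females (0.020). In SP0-mated females they were para, Sh, Shaw, cac and eag after D3Inj (0.040, 0.078, 0.052, 0.011 and 0.092) and para, Sh, Shab, cac and eag in sham (0.071, 0.14, 0.040, 0.092 and 0.060). In sham virgin females they were para, Sh, Shal, Shaw, cac, eag and sei (0.070, 0.054, 0.089, 0.051, 0.031, 0.0041 and 0.023), and in D3Inj males para, Shab and eag (0.021, 0.038 and 0.0012). In the means of the 4 kinds they were cac after D3Inj (0.0034) and Sh, cac and slo in sham (0.022, 0.028 and 0.048). Under the other settings no called value changed sign, and 532 of them kept their call while 14 lost it. When single libraries were left out, 795 kept it and 45 lost it. The counts then ran from 3 to 8 in sham SP0-mated females, from 0 to 4 for sham males against the 3 kinds of female on D45, and from 0 to 1 for the same comparison in D3Inj brains on D4. Without the 4 libraries high in gut genes the count in sham virgin females was 5, with a single D4 library left that is assumed to vary like the other groups. With the replicate number as a block, the count for sham males against the 3 kinds of female on D45 was 1 (para -0.16, adjusted p = 0.0569 from edgeR), with all 48 libraries in the fit it was 1, and no other count changed with the block. The causes were not tested. With 3 libraries a group, the lowest and highest ends of the 95% intervals of the injury values were -0.27 and 0.30. The median half-width of these intervals was 0.11 in each of the 8 injury comparisons. Small differences after injury can therefore have been missed.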
